A study of Mus musculus with 15 samples.

Results

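The 10 circadian clock genes described here were Arntl, Npas2, Clock, Per1, Per2, Per3, Nr1d1, Nr1d2, Dbp and Tef. They were taken by symbol from a table of read counts for 23337 genes in cardiomyocytes purified from mouse hearts. All 10 were in the table, and all 10 were among the 11814 genes with enough counts to be tested. The lowest count of any member in any library was 20, for Per2. The mice carried Cas9 and GFP at the Rosa locus (Rosa-Cas9GFP) in every group and received an adeno-associated virus (AAV), a viral vehicle for a gene, on postnatal day 1. The vector was AAV-GFP in the control group, AAV-ATF4-2A-GFP in the second group and AAV-DDIT3-2A-GFP in the third, with 5 libraries each. ATF4 drives transcription in the integrated stress response, and DDIT3, also known as CHOP, is a transcriptional regulator made under stress of the endoplasmic reticulum. Hearts were taken at 4 weeks of age, dissociated by Langendorff perfusion and sorted for cardiomyocytes by flow cytometry. The titles number the libraries 1 to 5 in each group. The labels give neither the hour at which a heart was taken, nor what a number marks, nor the promoter of the vectors.

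The clock of mammalian cells is a loop of transcription factors. The proteins of Arntl (BMAL1) and of Clock or its relative Npas2 pair up and bind E-boxes, DNA elements in front of the Per, Cry, Nr1d and Dbp genes, and switch these genes on. The PER and CRY proteins then block that pair. The REV-ERB receptors encoded by Nr1d1 and Nr1d2 repress Arntl, Npas2, Clock and Nfil3 through ROR elements, where the ROR receptors activate. DBP, TEF and HLF activate genes through D-boxes, which NFIL3 represses. In heart and other tissues kept on a light cycle, Arntl RNA is known to be high when Dbp, Per3 and Nr1d1 RNA is low.

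Total counts per library lay between 6217744 and 8317249. Markers of cardiomyocytes dominated each library, with summed levels of 99513 to 159593 CPM (read counts relative to library size) over 8 genes, against 431 to 1502 CPM for 11 endothelial genes, 9.24 to 20.1 CPM for the leukocyte genes and 0 to 2.61 CPM for the erythroid genes. By Xist and Y-linked transcripts 4 libraries were female, namely ATF4 2, DDIT3 2, GFP 4 and GFP 5. Library GFP 5 also has a label naming SMART-Seq3 where the other labels name SMART-Seq2. Atf4 was 5.62-fold higher in the ATF4 group than in GFP (edgeR adjusted p = 4.1e-08) and Ddit3 was 54.0-fold higher in the DDIT3 group (edgeR adjusted p = 2.3e-12).

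Compared per kilobase of gene length, the mean levels over 15 libraries ran from Tef at 32.6 ± 9.32 CPM per kb (SD, n = 15) and Nr1d1 at 30.2 ± 9.28 down to Per2 at 3.02 ± 2.16 and Npas2 at 2.43 ± 0.981. Between them stood Nr1d2 at 19.5 ± 4.58, Dbp at 12.1 ± 9.25, Arntl at 9.27 ± 4.12, Clock at 7.78 ± 2.28, Per1 at 6.76 ± 4.21 and Per3 at 3.96 ± 2.34 CPM per kb. No neighbours in this order differed by more than the sum of their SDs. Spread between libraries of 1 vector was wide for several members. The SD of log2 CPM within groups was 1.17 for Per2, 1.05 for Dbp, 0.95 for Arntl, 0.92 for Per1 and 0.85 for Per3, against a median of 0.27 over all tested genes. A larger SD than that of Per2 was found in 0.305% of tested genes, and a larger one than that of Arntl in 0.830%.

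The DNA elements of the loop were looked for in the promoters, from 250 bases before to 50 bases after each start site in RefSeq (GRCm38.p6). Of the members, 9 had such windows, 14 in all, and Per2 had none. For each member with a match, 1 stretch is shown because the member followed the library number, with the matching letters in capitals.
Per1, E-box, chr11:69098753-69098818, plus strand: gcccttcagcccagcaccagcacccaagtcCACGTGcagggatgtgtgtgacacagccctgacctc
Tef, E-box, chr15:81802516-81802581, plus strand: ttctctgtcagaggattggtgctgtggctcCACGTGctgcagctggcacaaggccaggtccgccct
Per3, 2 D-boxes, chr4:151044796-151044890, minus strand: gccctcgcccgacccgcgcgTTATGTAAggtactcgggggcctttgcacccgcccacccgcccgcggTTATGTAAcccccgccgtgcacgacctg
Arntl, ROR element, chr7:113207528-113207556, plus strand: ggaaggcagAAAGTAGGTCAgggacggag
The E-box CACGTG stood in 3 of the 14 windows, at -166 from the Per1 start site and at -127 and -138 from separate Tef start sites, and in 7.15% of 32851 windows of all genes. The D-box TTATGTAA stood at -205 and -158 in the Per3 window and in 0.938% of all windows. The variant TTACGTAA stood in no member window and in 0.119% of all. A ROR element stood at +27 in 1 of the Arntl windows and in 0.384% of all. The cyclic AMP element TGACGTCA and the ATF4 element TGATGNAA stood in no member window, and in 1.79% and 3.97% of all windows. Both strands were searched, no match overlapped another, and a match is a description of letters only.

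Members of the clock followed the library number shared between vectors. Arntl was lowest in library 3 of each vector, and Dbp, Per3 and Tef were highest there. Of the 10 members, 8 differed between numbers after fitting the vector (edgeR quasi-likelihood test of 5 numbers, adjusted p below 0.05), against 17.5% of all tested genes. The members and this test were chosen with earlier results of these data known, so the count is a description and not independent support. The median share of the within-group spread of log2 CPM that lay between numbers was 78.2% over the members and 53.6% over all tested genes. It would be 33.3% on average for a number that carries nothing. Each of the 10 members lay above the median of all genes.

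**Figure D1:**
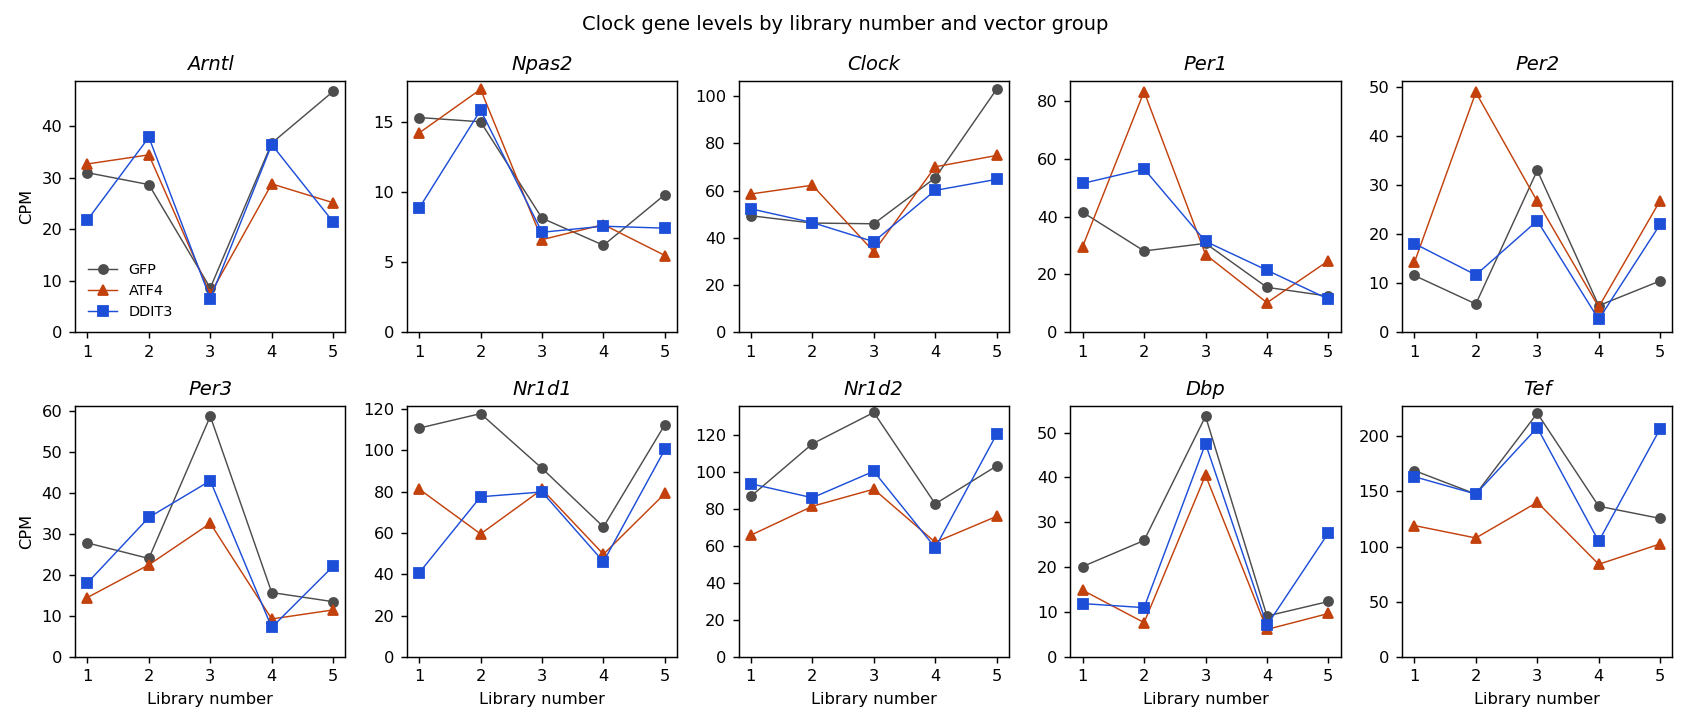
Level of each clock gene (vertical axes, CPM) in libraries 1 to 5 (horizontal axes) of the GFP, ATF4 and DDIT3 groups. Each point is 1 library, and lines join libraries of 1 vector without implying an order. Arntl lies between 6.51 and 8.58 CPM in the 3 libraries numbered 3 and between 21.4 and 46.8 CPM in the others.

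Arntl (chromosome 7, 113207465 to 113314126, GRCm38, plus strand) encodes BMAL1, the partner that the loop cannot do without. Arntl stood at 30.98, 28.7, 8.58, 36.7 and 46.8 CPM in GFP libraries 1 to 5, at 32.7, 34.5, 7.40, 28.8 and 25.1 CPM in ATF4 libraries 1 to 5, and at 21.8, 37.9, 6.51, 36.4 and 21.4 CPM in DDIT3 libraries 1 to 5. Library 3 was the lowest of each vector, and the 3 libraries of that number did not overlap the other 12. Their mean of 7.50 CPM was 4.24-fold below the mean of 31.8 CPM in the others. Numbers 1, 2, 4 and 5 averaged 28.5, 33.7, 34.0 and 31.1 CPM. Between numbers lay 92.1% of the spread, and the edgeR adjusted p was 8.4e-04. Without the libraries of number 3 the adjusted p was 0.746, and without the DDIT3 group it was 0.0600.

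Npas2 (chromosome 1, 39193731 to 39363236, plus strand) and Clock (chromosome 5, 76209868 to 76304792, minus strand) encode the partners of BMAL1. Npas2 stood at 15.3, 14.99, 8.12, 6.19 and 9.80 CPM in GFP libraries 1 to 5, at 14.2, 17.3, 6.59, 7.66 and 5.46 CPM in ATF4 libraries 1 to 5, and at 8.84, 15.8, 7.12, 7.55 and 7.41 CPM in DDIT3 libraries 1 to 5. Libraries 1 and 2 ranged from 8.84 to 17.3 CPM and libraries 3 to 5 from 5.46 to 9.80 CPM, a ratio of means of 1.97. Clock stood at 49.4, 46.3, 45.95, 65.4 and 103 CPM in GFP libraries 1 to 5, at 58.6, 62.3, 34.2, 70.1 and 74.9 CPM in ATF4 libraries 1 to 5, and at 52.3, 46.5, 38.4, 60.1 and 64.8 CPM in DDIT3 libraries 1 to 5. Clock was lowest in library 3 and highest in library 5 of each vector, although library GFP 3 at 45.95 CPM and GFP 2 at 46.3 CPM were nearly level. Both genes differed between numbers (edgeR adjusted p = 0.00431 for Npas2 and 0.00448 for Clock), also without number 3 (adjusted p = 0.0121 and 0.0303). Without the DDIT3 group the values were 0.119 and 0.144.

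The Per genes encode the proteins that block the BMAL1 pair. Per1 lies on chromosome 11 (69095217 to 69109960, plus strand), Per2 on chromosome 1 (91415982 to 91459324, minus strand) and Per3 on chromosome 4 (151003652 to 151044665, minus strand). Per1 stood at 41.6, 28.1, 30.8, 15.5 and 12.5 CPM in GFP libraries 1 to 5, at 29.7, 83.4, 26.9, 10.2 and 24.8 CPM in ATF4 libraries 1 to 5, and at 51.6, 56.6, 31.5, 21.5 and 11.5 CPM in DDIT3 libraries 1 to 5. Libraries 1 and 2 held 28.1 to 83.4 CPM and libraries 3 to 5 held 10.2 to 31.5 CPM, a ratio of means of 2.36. Per2 stood at 11.5, 5.73, 32.9, 5.40 and 10.4 CPM in GFP libraries 1 to 5, at 14.2, 48.8, 26.6, 5.11 and 26.8 CPM in ATF4 libraries 1 to 5, and at 18.04, 11.7, 22.7, 2.60 and 21.96 CPM in DDIT3 libraries 1 to 5. Library 4 was the lowest of each vector, at 2.60 to 5.40 CPM, and the highest was library 3 in GFP and DDIT3 but library 2 in ATF4. Per3 stood at 27.8, 23.98, 58.7, 15.7 and 13.4 CPM in GFP libraries 1 to 5, at 14.5, 22.4, 32.5, 9.23 and 11.4 CPM in ATF4 libraries 1 to 5, and at 18.04, 33.98, 42.9, 7.16 and 22.1 CPM in DDIT3 libraries 1 to 5. Library 3 was the highest of each vector, with a mean of 44.7 CPM against 18.3 CPM in the others. The test called Per3 (edgeR adjusted p = 0.00178) and Per1 (0.0261) but not Per2 (0.0765). Per1 lost the call without library ATF4 2 (edgeR adjusted p = 0.0525), DDIT3 2 (0.0583) or GFP 5 (0.0658), without number 4 (0.0558) or 5 (0.0582) and with no filter on low counts (0.0755). Per1 was also not called without the GFP group (edgeR adjusted p = 0.118) or the DDIT3 group (0.185), nor Per3 without the ATF4 group (0.0821). By the same test Per2 gained a call without ATF4 2 (0.00657) or GFP 2 (0.0383). Without the libraries of number 3 the adjusted p was 0.0379 for Per1 and 0.0389 for Per3.

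Nr1d1 (chromosome 11, 98767932 to 98775333, minus strand) and Nr1d2 (chromosome 14, 18204054 to 18239127, minus strand) encode the receptors that repress Arntl. Nr1d1 stood at 111, 118, 91.3, 62.9 and 113 CPM in GFP libraries 1 to 5, at 81.3, 59.5, 81.1, 49.7 and 79.1 CPM in ATF4 libraries 1 to 5, and at 40.7, 77.5, 79.9, 46.1 and 101 CPM in DDIT3 libraries 1 to 5. Nr1d2 stood at 86.9, 115, 132, 82.8 and 103 CPM in GFP libraries 1 to 5, at 65.9, 81.5, 90.8, 62.02 and 76.1 CPM in ATF4 libraries 1 to 5, and at 93.7, 86.1, 100, 59.1 and 121 CPM in DDIT3 libraries 1 to 5. Library 4 held the lowest Nr1d2 level of each vector, and the lowest Nr1d1 level in GFP and ATF4 but not in DDIT3, where library 1 was lower. No number held the highest Nr1d1 level in more than 1 vector. Nr1d2 differed between numbers (edgeR adjusted p = 0.0214) and Nr1d1 did not pass (0.0816). Nr1d2 lost the call without library DDIT3 4 (edgeR adjusted p = 0.0824), GFP 3 (0.0532) or GFP 4 (0.0536) and without number 3 (0.0606) or 4 (0.221), while Nr1d1 passed without DDIT3 1 (0.00663). Nr1d2 was also not called without the GFP group (edgeR adjusted p = 0.118), the ATF4 group (0.0747) or the DDIT3 group (0.126). Exons of Nr1d1 share 263 bases, 8.55% of its exonic length, with Thra on the opposite strand, and the library kit does not mark strand, so that reads there cannot be assigned to 1 gene.

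Dbp (chromosome 7, 45705088 to 45710203, plus strand) and Tef (chromosome 15, 81802421 to 81826863, plus strand) encode D-box activators at the output of the clock. Dbp stood at 20.1, 25.9, 53.6, 9.09 and 12.3 CPM in GFP libraries 1 to 5, at 14.8, 7.62, 40.5, 6.10 and 9.65 CPM in ATF4 libraries 1 to 5, and at 11.9, 10.96, 47.5, 7.03 and 27.6 CPM in DDIT3 libraries 1 to 5. Library 3 held 40.5 to 53.6 CPM and the other 12 libraries 6.10 to 27.6 CPM, without overlap and with a ratio of means of 3.47. Library 4 was the lowest of each vector. Tef stood at 169, 148, 221, 137 and 125 CPM in GFP libraries 1 to 5, at 119, 108, 140, 83.9 and 102 CPM in ATF4 libraries 1 to 5, and at 163, 148, 208, 105 and 207 CPM in DDIT3 libraries 1 to 5. Tef had the same highest number in each vector, with a mean of 189.6 CPM in number 3 against 134 CPM in the others, but DDIT3 5 at 207 CPM stood nearly level with DDIT3 3. Both differed between numbers (edgeR adjusted p = 0.00400 for Dbp and 0.0167 for Tef). Tef lost the call without library DDIT3 4 (edgeR adjusted p = 0.0525) or GFP 3 (0.0642) and without number 4 (0.106), and without number 3 neither passed (0.201 for Dbp and 0.158 for Tef). Neither passed without the ATF4 group (edgeR adjusted p = 0.099 for Dbp and 0.156 for Tef), nor Tef without the DDIT3 group (0.126). Exons of Dbp share 539 bases, 18.01% of its exonic length, with Sphk2 on the opposite strand. Sphk2 stood at 32.2 to 35.5 CPM in the libraries of number 3 and at 29.1 to 40.1 CPM in the others.

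Arntl and Dbp separated the libraries of number 3 from the rest on both axes. Per kilobase of length, the ratio of Dbp to Arntl was 9.48 in ATF4 3, 12.6 in DDIT3 3 and 10.8 in GFP 3. It was 0.334 to 0.429 in the libraries of number 4, 0.787 to 1.13 in number 1, 0.383 to 1.57 in number 2 and 0.457 to 2.23 in number 5. Number 4 thus held the lowest ratio within each vector, although ATF4 2 at 0.383 lay below GFP 4 at 0.429. Number 5 was the most uneven in fold terms, from GFP 5 at 0.457 to DDIT3 5 at 2.23.

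**Figure D2:**
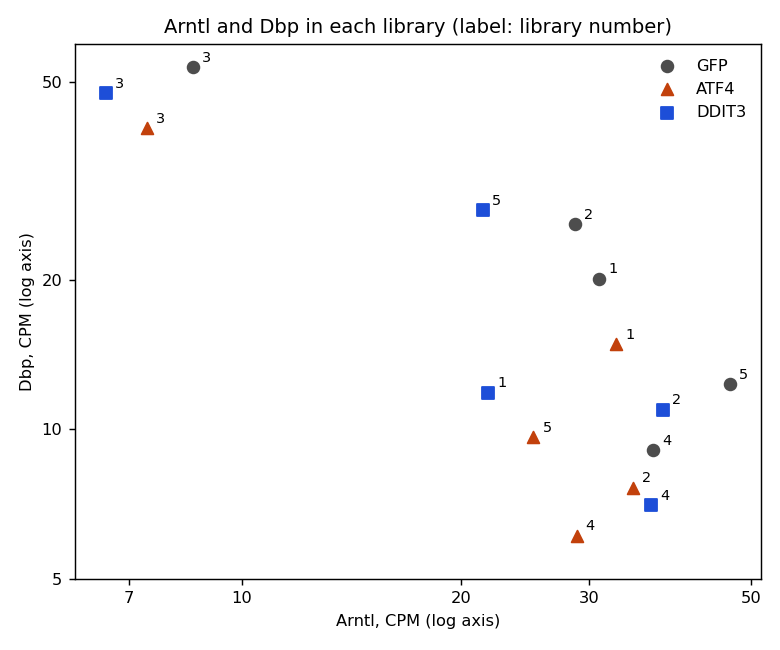
Level of Dbp (vertical log axis, CPM) against Arntl (horizontal log axis, CPM) in 15 libraries, with the library number beside each point and the vector group by symbol. The 3 libraries of number 3 lie at the upper left, with 6.51 to 8.58 CPM of Arntl and 40.5 to 53.6 CPM of Dbp.

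With the vectors fitted, the deviation of each number from the mean of the 5 numbers gives the direction of each member. Number 3 stood at a log2 deviation of -1.66 ± 0.18 (SE) for Arntl, -0.51 ± 0.10 for Clock and -0.39 ± 0.15 for Npas2, and at 1.51 ± 0.20 for Dbp, 1.08 ± 0.15 for Per3, 0.96 ± 0.33 for Per2, 0.40 ± 0.09 for Tef and 0.27 ± 0.08 for Nr1d2. Per1 and Nr1d1 did not stand clear of the mean in number 3, at 0.09 ± 0.25 and 0.14 ± 0.14. Number 4 stood at -1.74 ± 0.44 for Per2, -1.18 ± 0.27 for Dbp, -0.97 ± 0.19 for Per3, -0.82 ± 0.27 for Per1, -0.55 ± 0.15 for Nr1d1, -0.41 ± 0.15 for Npas2, -0.39 ± 0.09 for Nr1d2 and -0.40 ± 0.10 for Tef, and at 0.52 ± 0.14 for Arntl. Clock also stood above the mean in number 4, at 0.21 ± 0.10. The 8 genes below the mean in number 4 are the Per genes, the REV-ERB genes, the D-box activators and Npas2, a partner of BMAL1. Number 2 was highest for Per1, at 0.96 ± 0.23, and for Npas2, at 0.75 ± 0.13. Number 5 was highest for Clock, at 0.51 ± 0.10, and low for Per1, at -0.79 ± 0.27.

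**Figure D3:**
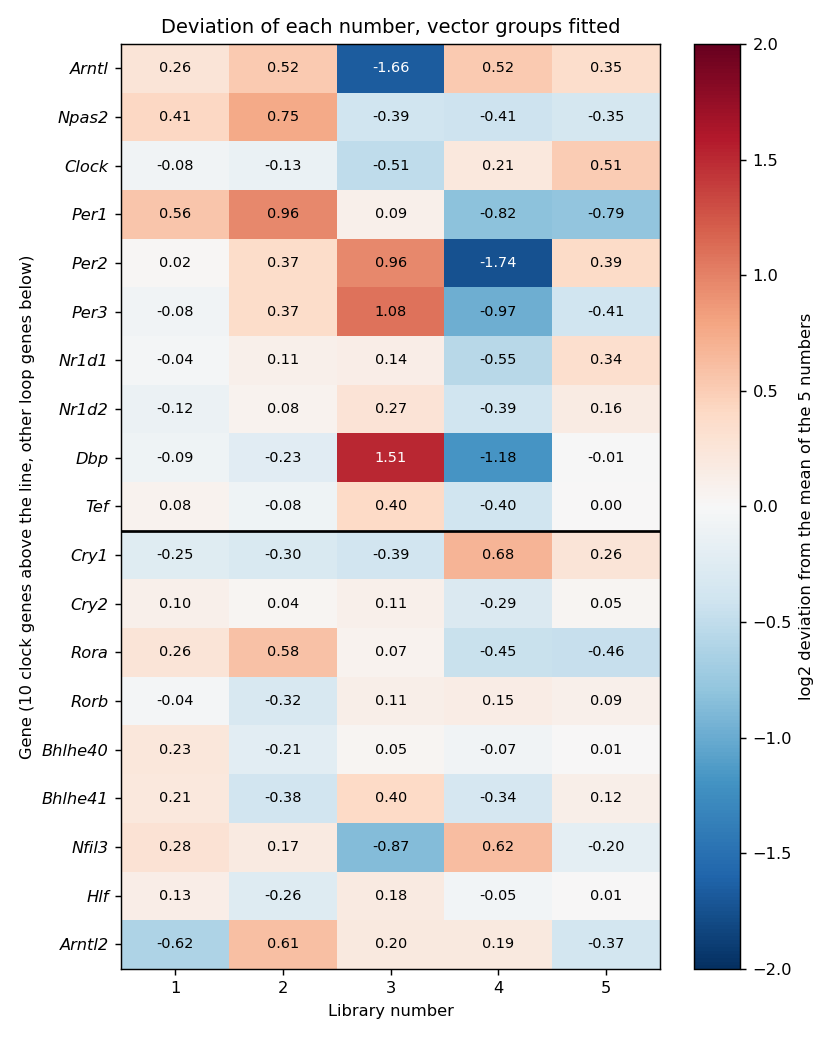
Log2 deviation of each library number (horizontal axis) from the mean of the 5 numbers, with vector groups fitted, for the 10 clock genes above the line and 9 other genes of the loop below it (vertical axis). Colour and printed value give the deviation. The extreme cells are Per2 in number 4 (-1.74), Arntl in number 3 (-1.66) and Dbp in number 3 (1.51).

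Of 9 other genes of the loop that were tested, 3 differed between numbers, which are Cry1, Rora and Nfil3, where 17.5% of all tested genes did. Nfil3, the repressor at D-boxes, was lowest in library 3 of each vector, at 29.4 to 30.5 CPM against 42.4 to 109 CPM in the other libraries (edgeR adjusted p = 0.0108). Cry1, which blocks the BMAL1 pair, was highest in library 4 of each vector, at 33.4, 34.4 and 43.1 CPM in ATF4, DDIT3 and GFP (edgeR adjusted p = 0.00696). Rora, a receptor that activates through ROR elements, was highest in library 2 of each vector, at 27.7, 32.6 and 26.5 CPM in the same order (edgeR adjusted p = 0.00488). Cry1 lost the call without number 4 (edgeR adjusted p = 0.166), and Nfil3 without number 3 (0.168) or 4 (0.0616). Without the DDIT3 group the edgeR adjusted p was 0.18 for Cry1, 0.109 for Nfil3 and 0.202 for Rora. Without the GFP group it was 0.0683 for Cry1 and 0.112 for Nfil3. No call was made for Cry2, Rorb, Bhlhe40, Bhlhe41, Hlf or Arntl2, with edgeR adjusted p-values from 0.117 to 0.862. Ciart was not analysed here.

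Genes that modify clock proteins gave 3 calls of 15 tested, Prkaa2, Fbxw11 and Csnk1e, a count near the 17.5% of all tested genes. Prkaa2, a subunit of AMP kinase (edgeR adjusted p = 0.00229), and Fbxw11, which marks PER proteins for breakdown (0.00300), were highest in library 5 of each vector. Csnk1e, the casein kinase that acts on PER proteins (0.00587), had its highest mean of 61.5 CPM in number 2. Among known rhythmic outputs of heart and other tissues, 10 of 19 were called. Cirbp, a cold-inducible RNA-binding protein, ranked 3 by p among all tested genes, with 97.1% of its spread between numbers and means of 86.9, 81.7, 66.5, 48.5 and 38.7 CPM in numbers 1 to 5 (edgeR adjusted p = 1.7e-04). Pim3, a kinase, had 155 and 192 CPM in numbers 1 and 2 but 85.2 CPM in numbers 4 and 5 (5.9e-04). Tfrc, the transferrin receptor, was lowest in library 2 of each vector, at 60.8, 70.8 and 208 CPM in DDIT3, ATF4 and GFP (0.00595). Leo1 and Nampt were called as well (0.00165 and 0.00901). Without number 5 the adjusted p by edgeR was 0.0984 for Prkaa2, 0.403 for Fbxw11 and 0.0645 for Csnk1e, and Nampt passed neither without number 2 (0.0604) nor without number 3 (0.0674). With the DDIT3 group left out, the edgeR adjusted p was 0.142 for Prkaa2, 0.146 for Fbxw11 and 0.119 for Csnk1e. For Leo1, Nampt and Tfrc it was then 0.0996, 0.235 and 0.0761. Tfrc also failed without the ATF4 group (0.149), and Prkaa2 and Csnk1e without the GFP group (0.0611 and 0.0925). Cirbp and Pim3 kept the call in all 28 alternatives.

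Other gene lists were counted between numbers as well, where 17.5% of all tested genes were called, and their part in the clock pattern was not tested. Glucocorticoid-induced genes gave 4 calls of 11, led by Sult1a1 (edgeR adjusted p = 0.00120), Mt1 (0.00285, but 0.179 without number 4) and Fkbp5 (0.0224, lost in 11 of 28 alternatives). The immediate early genes gave 5 calls of 16, with Zfp36 lowest in p (7.5e-04), then Klf2 (0.00657, but 0.0913 without number 5) and Ier3 (0.00694, but 0.140 without number 3). Their summed level over 17 genes averaged 2812, 3315, 1592, 1610 and 1059 CPM in numbers 1 to 5. Between numbers, 3 of 8 cardiomyocyte markers, 2 of 11 endothelial, 2 of 7 fibroblast, 0 of 8 pericyte and smooth muscle, 0 of 6 atrial and 0 of 4 leukocyte markers were called, which for the endothelial list is near that background and for the last 3 lists below it. Number 3 had 3 male libraries, and adding the sex of the library to the model left the same 8 members called. Without the ATF4 group 4 members were called (Arntl, Npas2, Clock and Per1), where 1358 genes of the whole table passed. Without the GFP group they were 6 (Arntl, Npas2, Clock, Per3, Dbp and Tef), where 868 genes passed. Without the DDIT3 group they were 2 (Per3 and Dbp), where 29 genes passed. No member was called in each of these fits. Without the libraries of number 3, the 4 members called were Npas2, Clock, Per1 and Per3, against 15% of all genes tested.

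The genes most like Arntl and Dbp were found from deviations from the group mean of log2 CPM over 15 libraries, among 9054 genes outside the lists. Glce, an enzyme of heparan sulfate synthesis, had the highest Pearson r with Arntl at 0.923, before Prnp at 0.900, Bicd2 at 0.899, Ctnnb1 at 0.872 and Mtap4 at 0.869. With Dbp it was Dolpp1 at 0.870, Fastk at 0.869, Kcnh2 at 0.861, Fbxw5 at 0.857 and Trim26 at 0.852. These are descriptions, since the 15 libraries share 5 numbers and the genes were picked for r. Without the libraries of number 3, r fell to between 0.0281 and 0.537 for the first 5 genes and to between 0.512 and 0.643 for the second 5. Glce averaged 20.4 CPM in number 3 and 31.2 CPM in the others, a smaller difference than that of Arntl.

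Fewer clock genes were called between vectors than between numbers, but these tests differ in their error. The number was tested with the vector in the model, while the contrasts left the number out. Spread between numbers thus stayed in the error, SEs and 95% intervals of the contrasts. With the number as a replicate block, ATF4 against GFP called 4 members, DDIT3 against GFP 0 and ATF4 against DDIT3 2. More genes of the whole table were called as well, and the numbers were not taken to pair ATF4 with GFP. Without the block, ATF4 against GFP called 2 of 10 members, Nr1d2 and Tef, both lower with ATF4. Of all tested genes 16.5% were called higher and 15.6% lower. A count of 2 in 10 is near that background. The median log2 fold change was -0.35 over the members and 0.02 over all tested genes. In these sorted cells, fewer cells of a type and less RNA per cell cannot be told apart.

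Nr1d2 averaged 75.3 ± 11.7 CPM with ATF4 against 104 ± 20.4 CPM with GFP (SD, n = 5), which is -0.47 ± 0.17 on the log2 scale (SE, edgeR adjusted p = 0.0429). Tef averaged 111 ± 20.8 CPM against 159.9 ± 37.7 CPM, or -0.53 ± 0.19 on the log2 scale (edgeR adjusted p = 0.0387). Both genes were lower with ATF4 in each of the 5 numbers, while the ranges of the groups overlapped. The numbers were not taken to pair ATF4 with GFP, so the direction by number is a description and no paired test. Nr1d2 lost the call without library ATF4 1 (edgeR adjusted p = 0.0988), ATF4 4 (0.0941), ATF4 5 (0.0661), DDIT3 1 (0.0515), GFP 2 (0.0844), GFP 3 (0.121) or GFP 5 (0.0637). Tef lost it without ATF4 1 (0.0551), ATF4 2 (0.0627), ATF4 4 (0.0907), ATF4 5 (0.0748), GFP 1 (0.0671) or GFP 3 (0.123). Over 23 alternatives the adjusted p ran from 0.00254 to 0.121 for Nr1d2 and from 0.00164 to 0.123 for Tef. The authors' deposited table gave adjusted p-values of 0.0117 for Nr1d2 and 0.00996 for Tef.

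Nr1d1, Per3 and Dbp were also lower with ATF4 in each of the 5 numbers, again as a description only, but did not pass without the replicate block. Their log2 fold changes were -0.50 ± 0.23 for Nr1d1 (edgeR adjusted p = 0.111), -0.63 ± 0.47 for Per3 (0.331) and -0.61 ± 0.63 for Dbp (0.486). Nr1d1 passed by edgeR without library GFP 4 (0.0463) and in a fit of the 2 groups alone (0.0491), and the authors' deposited table gave it an adjusted p of 0.0293. Arntl, Npas2 and Clock had log2 fold changes of -0.24 ± 0.46, -0.09 ± 0.33 and -0.05 ± 0.23, with 95% intervals of -1.25 to 0.77, -0.82 to 0.63 and -0.56 to 0.46. Per1 and Per2 stood at 0.44 ± 0.51 and 0.89 ± 0.62, with 95% intervals of -0.68 to 1.56 and -0.46 to 2.23, each with its highest ATF4 level in library 2. Without that library the Per1 value was -0.168.

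**Figure D4:**
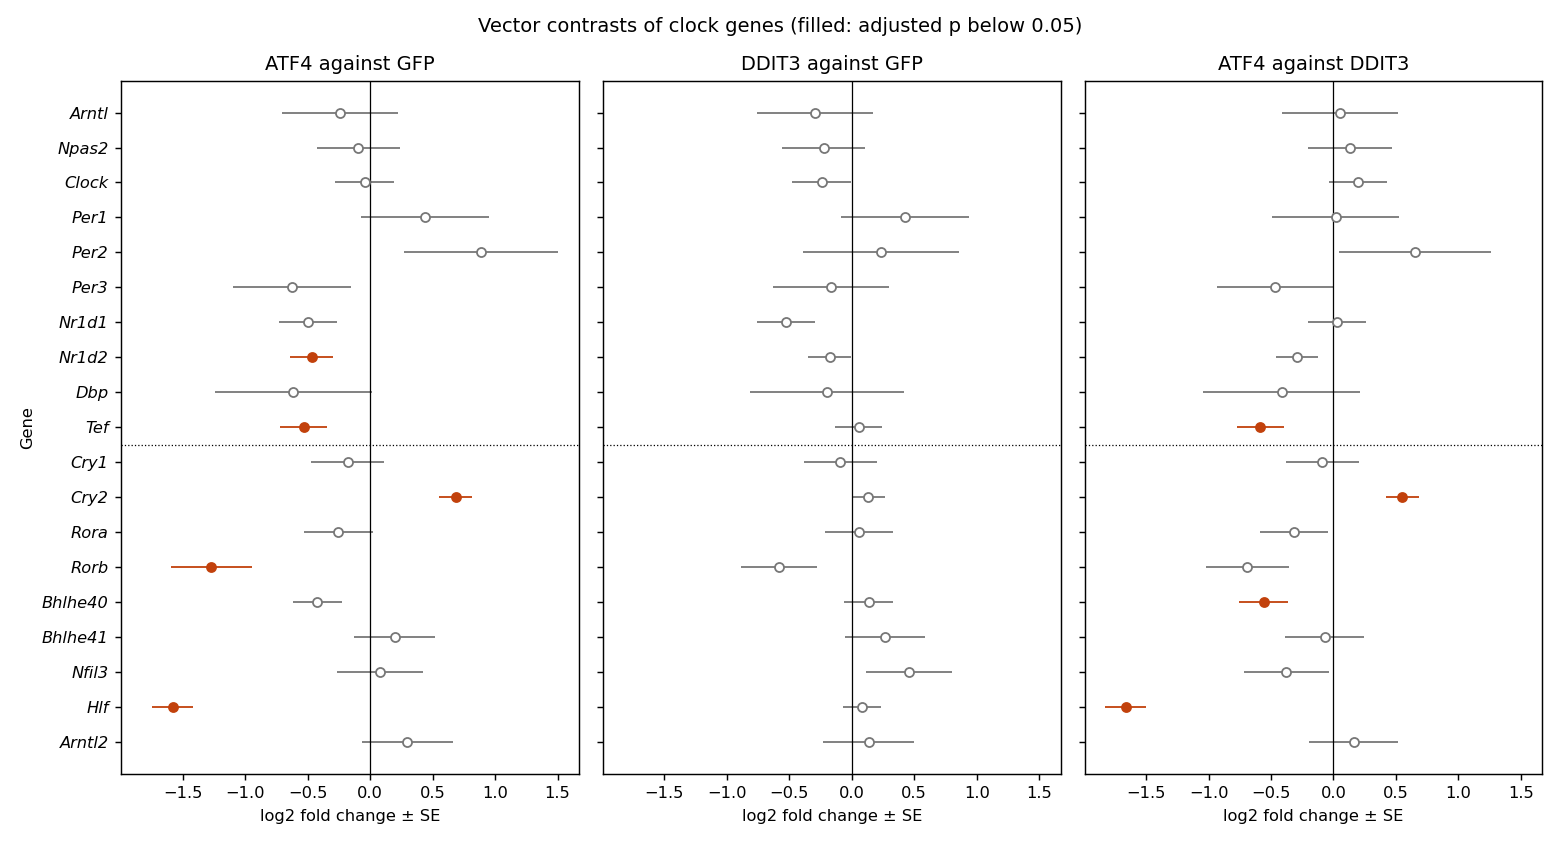
Log2 fold change with its SE (horizontal axes) for the 10 clock genes above the dotted line and 9 other loop genes below it (vertical axis), in the 3 contrasts between vectors. Filled points have an edgeR adjusted p below 0.05. Among members, Nr1d2 and Tef are filled in ATF4 against GFP and Tef in ATF4 against DDIT3.

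DDIT3 against GFP called 0 of 10 members, where 0.525% of all tested genes were called higher and 0.339% lower. The median log2 fold change was -0.19 over the members and 0.0035 over all tested genes. By edgeR 1 member, Nr1d1, was under 0.05 before adjustment, with a log2 fold change of -0.52 ± 0.23 and an edgeR adjusted p of 0.457. DESeq2 called 0. Nr1d1 averaged 68.9 ± 25.1 CPM with DDIT3 and 99.1 ± 22.6 CPM with GFP and was lower in each of the 5 numbers. The 95% interval of the log2 fold change ran from -0.35 to 0.46 for Tef, -0.55 to 0.19 for Nr1d2 and -0.75 to 0.27 for Clock. It was wider for Arntl, at -1.30 to 0.72, for Per3, at -1.18 to 0.85, and for Dbp, at -1.55 to 1.15. The authors' deposited table likewise gave no member an adjusted p below 0.05, with 0.423 for Nr1d1 as the lowest.

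ATF4 against DDIT3 called 1 of 10 members, Tef, where 17.8% of all tested genes were called higher and 16% lower. The median log2 fold change was 0.02 over the members and 3.3e-04 over all tested genes. Tef averaged 111 ± 20.8 CPM with ATF4 and 166 ± 43.3 CPM with DDIT3, or -0.59 ± 0.19 on the log2 scale (edgeR adjusted p = 0.0223), and was lower in each of the 5 numbers. It lost the call without library ATF4 4 (edgeR adjusted p = 0.0580), DDIT3 3 (0.0628) or DDIT3 5 (0.0640). Libraries of these vectors with the same number deviated together, and with the number as a replicate block Nr1d2 was called as well, at -0.28 ± 0.11 (edgeR adjusted p = 0.0458, against 0.204 without the block). This contrast and the one against GFP share the ATF4 libraries. The block fit held all 15 libraries, with 1 effect per number shared by the 3 vectors. It thus also tied ATF4 to GFP, which the numbers were not taken to pair.

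Among the other loop genes, ATF4 against GFP called 3 of 9, 1 higher and 2 lower, with a median log2 fold change of -0.18 over the 9. That count is near the background of 16.5% of all tested genes called higher and 15.6% lower. Hlf, the third D-box activator, stood at 8.46, 9.24, 12.8, 11.5 and 10.03 CPM in ATF4 libraries 1 to 5, 41.4, 22.02, 36.1, 28.05 and 27.97 CPM in GFP and 34.3, 30.1, 33.4, 29.9 and 36.9 CPM in DDIT3. All 5 ATF4 libraries lay below the other 10. The log2 fold change was -1.58 ± 0.16 against GFP (edgeR adjusted p = 8.1e-07) and -1.66 ± 0.16 against DDIT3 (4.0e-07), against -0.53 and -0.59 for its relative Tef. Cry2, which blocks the BMAL1 pair, stood at 117, 110, 95.1, 84.7 and 94.6 CPM in ATF4, 68.1, 56.4, 70.00, 55.8 and 61.8 CPM in GFP and 63.8, 73.1, 79.01, 47.8 and 78.7 CPM in DDIT3. Its log2 fold change was 0.68 ± 0.13 against GFP (edgeR adjusted p = 7.6e-04) and 0.55 ± 0.13 against DDIT3 (0.00400), again with no overlap between ATF4 and either group. Rorb, an activating receptor, was low throughout, at 1.05 ± 0.199 CPM with ATF4 and 2.58 ± 0.691 CPM with GFP (log2 fold change -1.27 ± 0.32, edgeR adjusted p = 0.00598, and 0.0796 without the 4 female libraries). Against DDIT3, Bhlhe40, a repressor at E-boxes, was lower at -0.56 ± 0.20 (edgeR adjusted p = 0.0363). That call was lost with the replicate block (edgeR adjusted p = 0.0605) and without library ATF4 1 (0.0888), ATF4 2 (0.0795), ATF4 4 (0.0610), DDIT3 1 (0.130), DDIT3 4 (0.0657) or DDIT3 5 (0.0613).

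**Figure D5:**
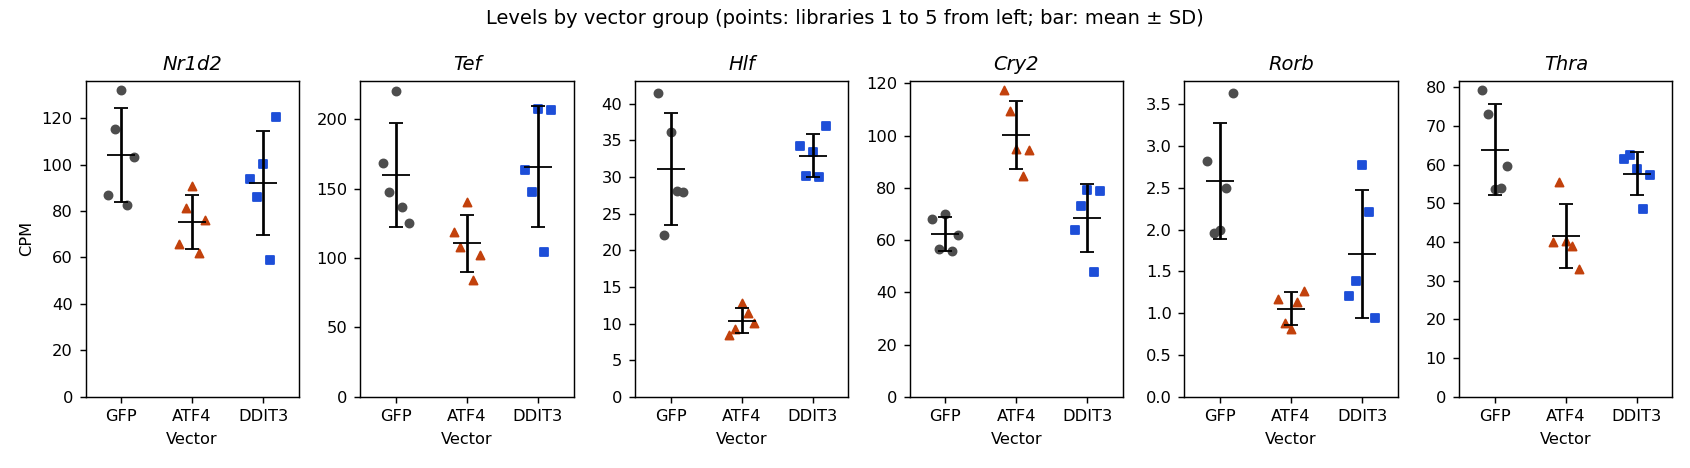
Levels (vertical axes, CPM) of Nr1d2, Tef, Hlf, Cry2, Rorb and Thra by vector group (horizontal axes), with 1 point per library, numbers 1 to 5 from left to right, and bars for mean and SD. The ATF4 libraries of Hlf lie between 8.46 and 12.8 CPM, below the 22.0 to 41.4 CPM of GFP and the 29.9 to 36.9 CPM of DDIT3.

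Among modifiers of clock proteins, ATF4 against GFP called 4 of 15, 1 higher and 3 lower, with a median log2 fold change of -0.12. This is no more than the 16.5% of all tested genes called higher and the 15.6% called lower would give together. Fbxw7, a subunit that marks REV-ERB alpha for breakdown, was lower at -0.70 ± 0.11 (edgeR adjusted p = 1.5e-04). Btrc, which marks PER proteins for breakdown, was lower at -0.28 ± 0.09 (0.0297), Hdac3, a corepressor enzyme used by the REV-ERB receptors, at -0.27 ± 0.09 (0.0250), and Gsk3b, a kinase of clock proteins, was higher at 0.53 ± 0.17 (0.0214). Without single libraries the edgeR adjusted p passed 0.05 for Gsk3b (0.0529 without ATF4 3, 0.0518 without GFP 2, 0.0526 without GFP 4), for Hdac3 (0.0560 without ATF4 4, 0.0514 without ATF4 5, 0.0531 without GFP 1, 0.0637 without GFP 3) and for Btrc (0.0514 without ATF4 1, 0.0507 without ATF4 5, 0.0650 without GFP 1, 0.0853 without GFP 5). Known rhythmic outputs gave 2 higher and 3 lower calls of 19, with a median of -0.15, which is likewise no more than that background. The higher were Cdkn1a, an inhibitor of the cell cycle, at 2.15 ± 0.37 and Por, an electron donor of cytochromes P450, at 1.25 ± 0.14. The lower were Kcnip2, a subunit of the transient outward potassium channel, at -1.10 ± 0.13, Nampt, an enzyme of NAD synthesis, at -0.64 ± 0.16, and Clpx at -0.45 ± 0.12, with edgeR adjusted p-values of 0.00901 or less. DDIT3 against GFP called 0 of 9 loop genes, 0 of 15 modifiers and 0 of 19 outputs by edgeR, with 0, 1 (Hdac3) and 1 (Pdk4) under 0.05 before adjustment. In this contrast 0.525% of all tested genes were called higher and 0.339% lower, so 0 calls in such short lists are near that background. With the replicate block 1 output passed, Cirbp, higher with DDIT3 at 0.36 ± 0.08 (edgeR adjusted p = 0.0266, against 0.782 without the block). Thra, which overlaps Nr1d1 on the other strand, was lower with ATF4 at -0.62 ± 0.14 (edgeR adjusted p = 0.00267).

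Markers of other cells were called with ATF4 as well, where 16.5% of all tested genes were called higher than with GFP and 15.6% lower. Of 11 endothelial markers, 10 were called higher with ATF4 than with GFP and 0 lower, with summed levels of 1030 to 1502 CPM against 452 to 910 CPM. Of 8 cardiomyocyte markers, 5 were called lower and 0 higher, with sums of 99513 to 109757 CPM against 116264 to 159593 CPM. Of 8 pericyte and smooth muscle markers, 4 were called higher and 0 lower, while their sums of 709 to 1381 CPM overlapped the 844 to 1340 CPM of GFP. Most of these sums came from Abcc9, at 354 to 633 CPM over the 15 libraries, and Acta2, at 39.9 to 849 CPM. No other marker of that list passed 132 CPM. Of 6 atrial markers, 1 was called higher and 2 lower, with a median log2 fold change of -1.27 but sums of 615 to 1166 CPM against 184 to 529 CPM. Nppa made up most of these sums, at 110 to 1416 CPM over the 15 libraries. No other tested atrial marker passed 71.8 CPM, so the sums follow 1 gene and not the list. Of 7 fibroblast markers 1 was called higher, near that background, and 0 lower. Of 4 leukocyte markers 0 were called by edgeR, with 0 under 0.05 before adjustment. The part of these markers in the lower Nr1d2, Tef and Hlf and the higher Cry2 was not tested.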

How the data were processed

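RNA of sorted mouse cardiomyocytes was measured in 15 libraries, grouped by the vector and the number 1 to 5 in their titles. The authors deposited read counts per gene, with a gene length column (other unit). The submitters' processing notes name STAR, featureCounts, DESeq2, DESeq and mm10. Their versions are not given in the sources read for this work. The authors' deposited tables of ATF4 and DDIT3 against GFP hold, per the file headers, a mean signal, a score (the test statistic), log2 fold changes and their standard errors, and p-values. Values from them are named as such.

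The 10 members, the gene lists and the tests were chosen with earlier results of these data known. Counts were tested with edgeR 4.0.16 (quasi-likelihood, robust, TMM, filterByExpr, R 4.3.3), in 1 fit of 15 libraries for the contrasts and 1 with vector and number for the number term, adjusted by Benjamini-Hochberg over 11814 genes at a threshold of 0.05. The filter removed 11523 genes. The alternatives were RLE factors, no filter, a replicate block, the 2 groups alone, no female libraries or a sex term, each library, number or group left out, and DESeq2 1.42.0. After seeing the data, leaving out number 3 in the contrasts, and ATF4 2 with DDIT3 2, were added. The edgeR contrast of ATF4 against GFP and the edgeR number term were tested on simulated data. Those data held no number effect for the contrast and a shift in number 3 alone for the number term. They cannot show how either test behaves with the shared number effects of these libraries.

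Named are the members, Atf4, Ddit3, Thra, each tested gene of the other loop, and the genes of the remaining lists with the lowest p for the number (modifiers 3, outputs 5, glucocorticoid-induced and immediate early 3 each), modifiers called between vectors, and the 5 genes most like Arntl and Dbp (mean of at least 5 CPM, prior count 2). Other genes named, such as Sphk2 and the outputs called between vectors, were chosen after their values were seen. Some genes of the other loop and the modifiers are not reported here and were left out of the counts and medians of those lists. Positions and exons are from GENCODE for GRCm38, the mm10 assembly, and promoters from RefSeq.

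Nothing in the labels says that libraries came from separate animals, so p-values measure only how these samples vary, which may be technical. Pairs of 1 group differed by more than sampling noise (chi-square per degree of freedom 8.60 to 50.4). Deviations of same-numbered libraries correlated at 0.205 to 0.511 for DDIT3 with GFP and at 0.135 to 0.497 for ATF4 with DDIT3. With every pair above 0.1, the numbers were taken to pair these, from the data alone. For ATF4 with GFP number 2 reached 0.0783, and they were not.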

Additional observations from a re-analysis of the deposited data

Results flagged for a closer look

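Among the 30 groups of 5 values (10 members in 3 vectors), 4 held a library far from the other 4 by Dixon's criterion, where chance marks about 1 in 20 groups. Npas2 stood at 15.8 CPM in DDIT3 2, with the other DDIT3 libraries at 7.12 to 8.84 CPM. Per1 stood at 83.4 CPM in ATF4 2, with the others at 10.2 to 29.7 CPM. Both are female libraries of number 2. Per2 stood at 32.9 CPM in GFP 3, with the others at 5.40 to 11.5 CPM, and Dbp at 40.5 CPM in ATF4 3, with the others at 6.10 to 14.8 CPM. Both of these carry number 3.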

How the results depend on the processing

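Counts of called members depended on single libraries. With 1 library left out at a time, ATF4 against GFP called 0 to 3 members, ATF4 against DDIT3 0 to 2 and DDIT3 against GFP 0 throughout. Without the libraries of number 3, and without ATF4 2 and DDIT3 2, ATF4 against GFP called 0. With a replicate block, ATF4 against GFP called 4 members (Per3, Nr1d1, Nr1d2 and Tef), and ATF4 against DDIT3 called 2. All genes called rose from 3801 to 5097 for ATF4 against GFP, where 8 of 10 libraries correlated best with their own number. Under the block the Per1 value for ATF4 against DDIT3 turned to -0.0199, and apart from those named here and in the text it changed no call of a member. The number term called 4 members without the ATF4 group (1358 genes of the whole table) and 2 without the DDIT3 group (29 genes). With 1 number left out it called 4 to 9 members, where 750 to 2421 genes passed. DESeq2 called all 10, with 0.0139 for Nr1d1 and 0.015 for Per2, where 2774 genes of the whole table passed against 2064 by edgeR.

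Log2 fold changes of uncalled members that turned are given here, and the cause was not tested. Without female libraries they were, for ATF4 against GFP, Arntl 0.0369, Clock 0.33 and Per1 -0.55. For DDIT3 against GFP they were Clock 0.191, Per1 -0.204, Per2 -0.0181 and Tef -0.0679, and for ATF4 against DDIT3 Per1 -0.346. Without number 3, Clock was 0.0105 (ATF4 against GFP) and Per3 0.0021 (DDIT3 against GFP). Without ATF4 2 and DDIT3 2, Per1 was -0.169 against GFP and -0.344 against DDIT3. With 1 library left out, values ranged for ATF4 against GFP from -0.363 to 0.0663 (Npas2), -0.14 to 0.211 (Clock) and -0.168 to 0.68 (Per1). For DDIT3 against GFP they ranged from -0.331 to 0.0169 (Clock), -0.458 to 0.295 (Per3), -0.751 to 0.316 (Dbp) and -0.0386 to 0.199 (Tef). For ATF4 against DDIT3 they ranged from -0.195 to 0.289 (Arntl), -0.137 to 0.399 (Npas2), -0.591 to 0.262 (Per1), -0.114 to 0.199 (Nr1d1) and -1.13 to 0.134 (Dbp).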
